A study of Mus musculus with 6 samples.

Results

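Transcripts of the metallothionein and zinc circuit were followed in primary mouse embryonic fibroblasts, connective tissue cells taken into culture from embryos, as they were exposed to the oxidant hydrogen peroxide (H2O2). The genes were Mt1, Mt2, Mtf1 and Slc30a1, chosen by name: each non-control probe that the scanner files assign to one of them was kept, whatever its signal. They make up 4 of 27670 gene names and 8 of 41174 probes on the array. Of these 8 probes, 7 were well above background in every replicate of some time point and were tested together with all such probes, 25874 in number. The groups were untreated cells (0 h) and cells kept for 2 h or for 4 h in 1 mM H2O2, with 2 one-colour Agilent arrays each. All groups grew in DMEM with 10% FCS, and total RNA taken up in Trizol was labelled with Cy3. Per the labels the replicates of a time point are independent experiments. The labels do not say whether these used separate embryos or cultures, and the strain and the age of the embryos are not given either, so the p-values measure only the spread between these arrays.

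Metallothioneins are small, cysteine-rich proteins that hold zinc and copper in clusters of thiolates. Oxidants attack these thiolates and set zinc free, and free zinc activates the zinc finger factor encoded by Mtf1, which binds metal response elements in promoters. Mouse Mt1, Mt2 and Slc30a1 are known targets of that factor, and Slc30a1 encodes ZnT1, the zinc exporter of the plasma membrane. Metallothionein genes of the mouse also respond to glucocorticoids and, through antioxidant response elements, to oxidants and electrophiles.

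The upstream sequences of the 3 known target genes are shown because they hold matches to the metal response core. They are the 250 bases before each transcript start in RefSeq (GRCm38.p6), on the plus strand, which is the coding strand of all 3 genes: chr8:94178839-94179088 for Mt1, chr8:94172368-94172617 for Mt2 and chr1:191906531-191906780 for Slc30a1. Capitals mark the letters TGCACNC or TGCGCNC, the core of the metal response element, or their reverse complement.
Mt1: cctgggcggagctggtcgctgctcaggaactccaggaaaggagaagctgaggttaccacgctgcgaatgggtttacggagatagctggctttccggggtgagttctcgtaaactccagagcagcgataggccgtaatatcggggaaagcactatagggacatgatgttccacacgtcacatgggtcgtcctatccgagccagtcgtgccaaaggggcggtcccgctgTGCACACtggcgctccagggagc
Mt2: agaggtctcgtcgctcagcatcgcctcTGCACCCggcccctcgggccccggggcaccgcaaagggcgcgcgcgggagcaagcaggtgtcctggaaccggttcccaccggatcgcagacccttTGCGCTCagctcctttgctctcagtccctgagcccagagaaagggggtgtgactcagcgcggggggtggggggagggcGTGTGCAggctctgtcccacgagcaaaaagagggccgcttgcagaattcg
Slc30a1: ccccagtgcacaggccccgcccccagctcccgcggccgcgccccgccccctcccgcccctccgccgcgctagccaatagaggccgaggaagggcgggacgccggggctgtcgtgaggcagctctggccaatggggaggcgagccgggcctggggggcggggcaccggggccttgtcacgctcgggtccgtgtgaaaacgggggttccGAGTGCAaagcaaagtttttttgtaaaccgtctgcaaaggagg
In the whole windows, which run from 250 bases before to 50 after the start, the core was found on either strand 3 times in Mt1, 4 times in Mt2 and 2 times in Slc30a1. It was found 0 times in the window of Mtf1. Of all 32851 windows of that length 25.7% held at least 1 such core, 7.11% at least 2, 1.97% at least 3 and 0.517% at least 4. The letters TGCACNC alone were present in 12.6% of windows and TGCGCNC in 15.4%. The antioxidant response core TGACNNNGC was present once on either strand in the window of Mt2 (bases -79 to -71 from the start) and once in that of Slc30a1 (-82 to -74). It was in 12.4% of all windows, and no match of one motif overlapped a match of another in these genes. The neighbouring genes Mt3 and Mt4 had 1 metal response core each. A match describes letters in a window and does not show that a factor binds there. The windows depend on the transcript start in RefSeq, and sequence beyond them was not searched. A core that was not found is therefore absent from the window only. Positions count the first base of the RefSeq transcript as 0. In Mt1 the cores at bases 2 to 8 and 20 to 26 lie after that start, and other possible starts of the gene were not examined.

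**Figure D1:**
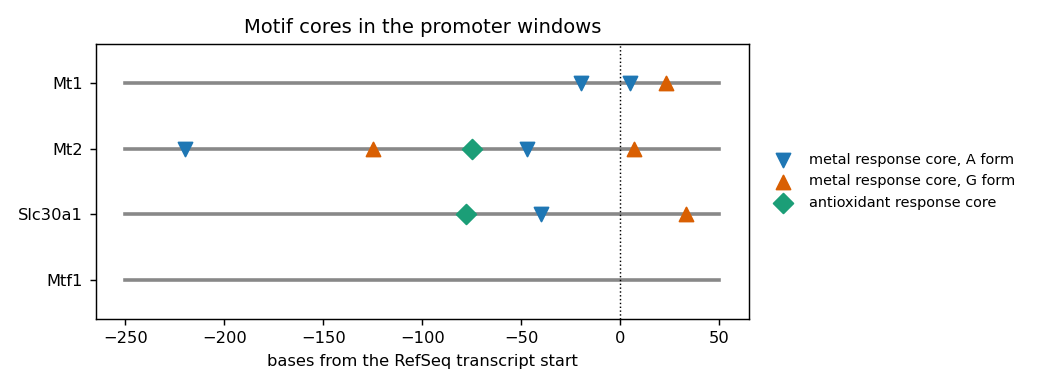
Positions of the metal response cores (triangles, pointing down for TGCACNC and up for TGCGCNC) and of the antioxidant response core (diamonds) in the promoter windows of the 4 genes. The horizontal axis is the distance in bases from the RefSeq transcript start (dotted line), and each grey line is a window of 250 bases before to 50 after it. Mt2 holds 4 metal response cores, Mt1 holds 3, Slc30a1 holds 2 and Mtf1 holds 0.

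Signals are given below as the processed signal divided by the 75th percentile of its array, here called the scaled signal, and changes as log2 differences of these values with their standard error (SE). A probe rose or fell where the two-sided limma p-value, adjusted over all probes by the Benjamini-Hochberg method, was under 0.05. The 75th percentile itself lay between 674 and 883, and no spot was saturated. Having 2 arrays per group limits the precision. With so few arrays, groups can lie apart without a change that passes the test. The share of all probes whose groups did not overlap is not given here. Of the non-control spots 57.3% to 68.0% were well above background on an array. All 12 fibroblast markers, among them Col1a1 and Vim, were well above background on all 6 arrays. The summed scaled signal of the fibroblast markers was 867 to 908 in untreated cells, 1071 to 1081 at 2 h and 1000 to 1048 at 4 h. Of 5 hepatocyte markers with a probe 1 was above background on all arrays and Ttr and Apoa1 on none, with sums of 0.204 to 0.215 at 0 h, 0.225 to 0.254 at 2 h and 0.264 to 0.277 at 4 h. Epithelial markers (3 of 5 above background, Epcam on no array) summed to 1.57 to 1.67, then 2.45 to 2.53, then 2.35 to 2.63 at 0 h, 2 h and 4 h. Leukocyte markers (4 of 5) summed to 1.74 to 1.77, then 2.12 to 2.32, then 2.07 to 2.12 at these times. Endothelial markers (2 of 5, Cdh5 and Tie1 on no array) summed to 0.370 to 0.421, then 0.452 to 0.460, then 0.420 to 0.483. Muscle markers (3 of 5, Myod1 on no array) summed to 26.3 to 34.9, then 29.1 to 38.5, then 27.7 to 32.0, and neural markers (4 of 5, Syp on no array) to 3.05 to 3.15, then 3.28 to 3.38, then 2.49 to 2.65. The part of such cells in the results was not tested. There was no untreated sample of matched age at 2 h or 4 h, and a given time point sat at one slide position throughout, so H2O2, time in culture and slide position cannot be told apart.

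The median change of all probes was 0.10 at 2 h and 0.06 at 4 h, and it depended on the scaling. It was -0.35 at 2 h and -0.20 at 4 h after scaling to the spike-in RNAs. With the 75th percentile 59.4% of the probes past the test at 2 h and 56.7% at 4 h were rises. With spike-in scaling these shares were 12.3% and 23.6%, with no scaling 19.8% and 23.9%, with median centring 30.4% and 34.9%, and with quantile normalization 43.0% and 45.6%. Small changes of the metallothioneins are therefore given below also relative to the median of all probes.

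Mt2 encodes one of the metallothioneins found in most mouse tissues, and its single probe (A_51_P246317) rose at both times. The scaled signal was 52.4 and 48.2 in untreated cells, 68.7 and 66.7 at 2 h, and 79.2 and 70.1 at 4 h (replicates 1 and 2). On both slides the signal was higher at 2 h than at 0 h and higher again at 4 h. The change at 2 h was 0.43 ± 0.09, a 1.35-fold rise (limma adjusted p = 0.0226, 0.39 and 0.47 on slides 1 and 2). At 4 h it was 0.57 ± 0.09, a 1.48-fold rise (adjusted p = 0.00951, 0.60 and 0.54 on slides 1 and 2). Of all tested probes 21.2% rose at 2 h and 23.0% at 4 h, so a rise of this kind was common on these arrays. In such bulk samples, more RNA of a gene per cell and more cells that express it cannot be told apart. Before any scaling the Mt2 signal was 43288 and 42590 in untreated cells, 46349 and 45151 at 2 h, and 53435 and 52884 at 4 h, so the order of the groups was there in the unscaled signal. The difference at 2 h was then small, 0.09 with no scaling (adjusted p = 0.344) and -0.02 with spike-in scaling (adjusted p = 0.795). The rise at 2 h did not pass the test without either untreated or either 2 h array (0.37 to 0.49, adjusted p = 0.0625 to 0.110). The rise at 4 h did not pass without untreated replicate 2 (0.51, adjusted p = 0.0525) and was also lost with median centring (0.41, adjusted p = 0.0512) and with normexp and the 75th percentile (0.44, adjusted p = 0.134).

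Mt1 encodes the closely related neighbour of Mt2 and is measured by 2 probes. Probe 1 (A_51_P294979) is printed 10 times on each array, and its 10 spots varied by 2.95% to 3.78% (coefficient of variation) within an array. Their mean scaled signal was 23.5 and 19.4 in untreated cells, 26.8 and 25.2 at 2 h, and 32.8 and 27.6 at 4 h. Replicate 1 was the higher at all 3 times. At 4 h probe 1 rose 1.41-fold (0.50 ± 0.14, adjusted p = 0.0432), with 0.48 on slide 1 and 0.51 on slide 2. This call did not hold when any 1 of the 6 arrays was left out (0.36 to 0.64, adjusted p = 0.0515 to 0.151). It was also lost with quantile normalization (0.29, adjusted p = 0.108), median centring (0.34, adjusted p = 0.174), no scaling (0.24, adjusted p = 0.120), spike-in scaling (0.24, adjusted p = 0.163) and both normexp settings (0.30 and 0.37, adjusted p = 0.0621 and 0.232). At 2 h the change of probe 1 was 0.28 ± 0.14 (adjusted p = 0.170, 0.19 and 0.38 on slides 1 and 2), which passed the test only in the fit with the replicate number as a block (adjusted p = 0.0422). The unscaled signal at 2 h, 18093 and 17051, overlapped that of the untreated arrays, 19435 and 17095. At 4 h it was 22135 and 20852, above both untreated arrays.

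Probe 2 of Mt1 (A_52_P423810) lies 167 bases nearer the start of the gene, by the coordinates in the scanner files, and did not follow probe 1 at 2 h. Its scaled signal was 0.565 and 0.548 in untreated cells, 0.480 and 0.487 at 2 h, and 0.735 and 0.662 at 4 h. It was lowest at 2 h and highest at 4 h on both slides. The change at 2 h was -0.20 ± 0.07 and did not pass the test (adjusted p = 0.0956). It passed as a fall with median centring (-0.40, adjusted p = 0.0380), no scaling (-0.54, adjusted p = 0.00512) and spike-in scaling (-0.66, adjusted p = 0.00207). At 4 h probe 2 rose 1.25-fold (0.33 ± 0.07, adjusted p = 0.0259). That call did not hold without any 1 array other than 4 h replicate 2 (0.25 to 0.35, adjusted p = 0.0575 to 0.118), nor with median centring (0.17, adjusted p = 0.247), no scaling (0.067, adjusted p = 0.494) or spike-in scaling (0.066, adjusted p = 0.481). Within each array the change of probe 2 minus that of probe 1, which does not depend on a scaling factor per array, was -0.42 and -0.55 at 2 h and -0.10 and -0.24 at 4 h on slides 1 and 2. With the 75th percentile the probes had opposite signs at 2 h, but with no scaling both were negative (-0.05 for probe 1 and -0.54 for probe 2), as they were with spike-in scaling (-0.17 and -0.66). The probe sequences were not used here, so whether the Mt1 and Mt2 probes detect each other's transcript was not tested.

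Mtf1 encodes the zinc-sensing factor itself, and its 2 tested probes gave different answers. Probe 2 (A_52_P236072), the one nearest the start of the gene, had the largest change among the probes of the 4 genes. Its scaled signal was 0.472 and 0.468 in untreated cells, 0.379 and 0.411 at 2 h, and 0.191 and 0.184 at 4 h. Replicates lay close together at each time. At 4 h probe 2 fell by 1.33 ± 0.07 on the log2 scale, to 0.399 of the untreated level (adjusted p = 0.000694, -1.31 and -1.35 on slides 1 and 2). Of all tested probes 17.6% fell at 4 h, and by size of change this probe was number 1606 of 25874. The change of probe 2 at 4 h was -1.35 to -1.30 when any 1 of the 6 arrays was left out. With normexp background correction and the 75th percentile it was -0.75 and did not pass the test (adjusted p = 0.0501). At 2 h it fell by 0.25 ± 0.07 (adjusted p = 0.0450), where 14.5% of all probes fell, but that call did not hold when any 1 array was left out (adjusted p = 0.0726 to 0.174).

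Probe 1 of Mtf1 (A_52_P467266) lies 44144 bases farther along the gene than probe 2. Its scaled signal was 0.487 and 0.524 in untreated cells, 0.516 and 0.531 at 2 h, and 0.587 and 0.570 at 4 h. The 2 h arrays overlapped the untreated ones, and both 4 h arrays lay above all others. The change did not pass the test at 2 h (0.05 ± 0.07, adjusted p = 0.577) or at 4 h (0.20 ± 0.07, adjusted p = 0.0766). With spike-in scaling it was -0.40 at 2 h (adjusted p = 0.0133) and -0.07 at 4 h. Probe 3 (A_52_P55666), 42591 bases beyond probe 2, was well above background on 0 of 6 arrays, with signals of 3.43 to 7.48, and was not tested. The change of probe 2 minus that of probe 1 within an array was -0.40 and -0.21 at 2 h and -1.58 and -1.47 at 4 h. The mean of the probes of Mtf1 would give a fall at 4 h (-0.57, adjusted p = 0.00375), although only probe 2 shows one. Which transcripts or isoforms the probes detect was not tested.

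**Figure D2:**
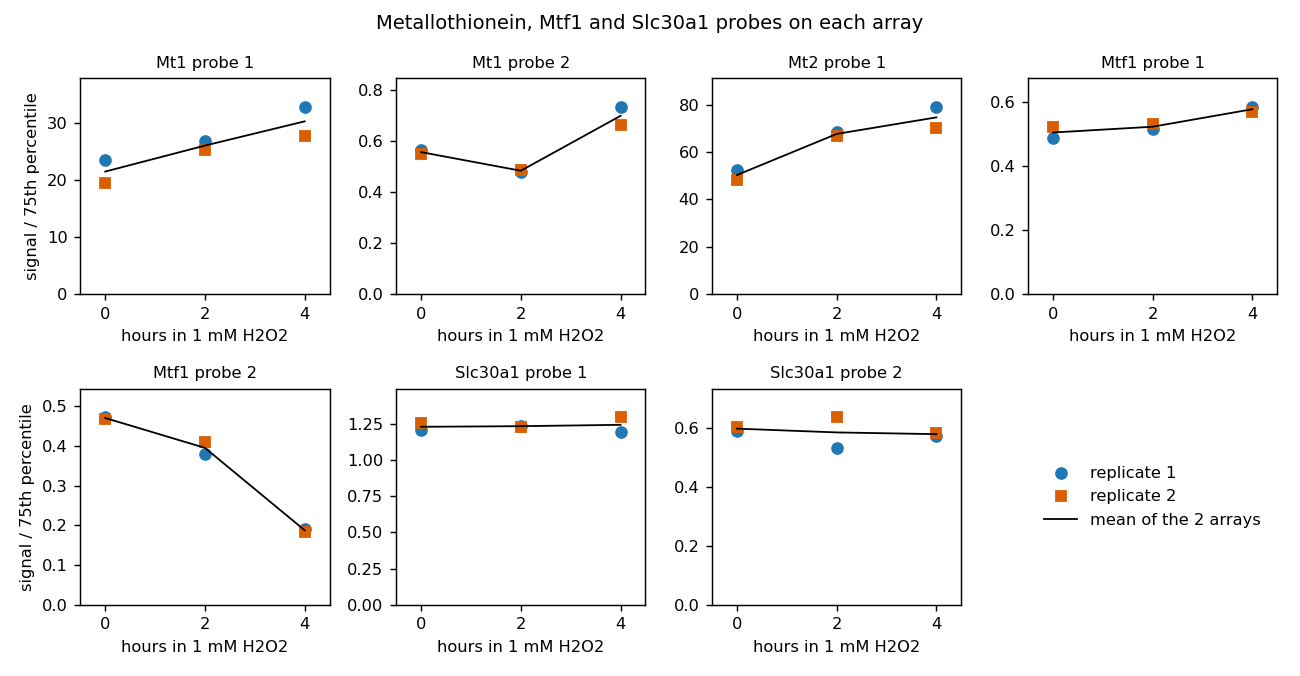
Scaled signal (processed signal over the array's 75th percentile, linear axis starting at 0) of the 7 tested probes against hours in 1 mM H2O2. Circles are replicate 1, squares replicate 2, and the line joins the means of the 2 arrays. Mt2 and Mt1 probe 1 are highest at 4 h, Mt1 probe 2 is lowest at 2 h, Mtf1 probe 2 drops to 0.191 and 0.184 at 4 h, and Slc30a1 probe 1 lies between 1.19 and 1.29 on all arrays.

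Slc30a1, the zinc exporter, is the third target gene, and neither of its 2 probes passed the test at either time. Probe 1 (A_51_P250378) had a scaled signal of 1.21 and 1.25 in untreated cells, 1.24 and 1.23 at 2 h, and 1.19 and 1.29 at 4 h. Its groups overlapped, and the values at 4 h enclosed all others. The change was 0.01 ± 0.07 at 2 h (95% confidence interval -0.18 to 0.19) and 0.01 ± 0.07 at 4 h (-0.17 to 0.20). Probe 2 (A_51_P300572), 3167 bases from probe 1, had 0.593 and 0.606 in untreated cells, 0.535 and 0.638 at 2 h, and 0.575 and 0.586 at 4 h. Its 2 h arrays enclosed all others, and both 4 h arrays lay below the untreated ones. Its change was -0.04 ± 0.10 at 2 h (-0.30 to 0.22) and -0.05 ± 0.10 at 4 h (-0.31 to 0.22). The adjusted p-values of the 4 tests lay between 0.743 and 0.959. After spike-in scaling both probes fell at 2 h, by 0.45 (adjusted p = 0.0107) and 0.49 (adjusted p = 0.0165), when the median of all probes was -0.35.

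**Figure D3:**
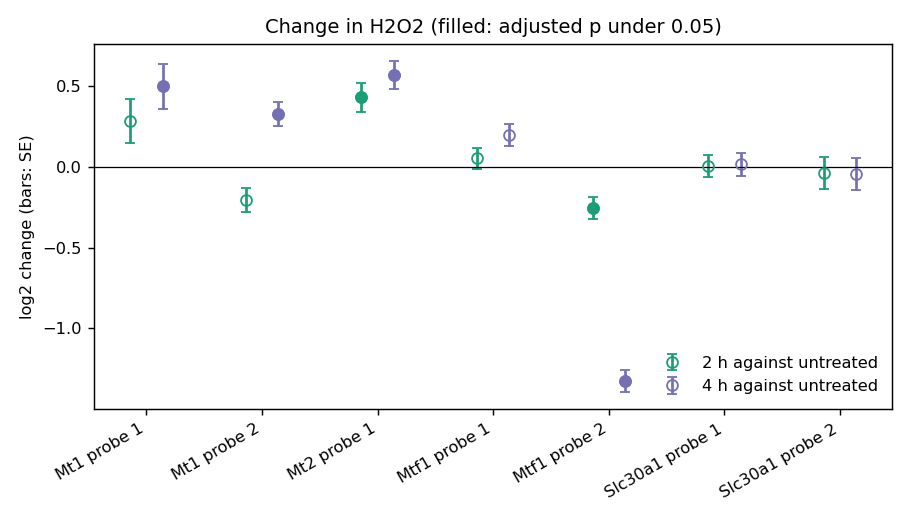
Log2 change against untreated cells of the 7 tested probes at 2 h (left of each pair) and 4 h (right), with bars for the standard error. Filled circles passed the limma test after adjustment over all probes. At 4 h both Mt1 probes and Mt2 are filled above 0, Mtf1 probe 2 is filled at -1.33, and Mtf1 probe 1 and both Slc30a1 probes are open.

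Of the 7 tested probes 1 rose and 1 fell at 2 h, where 35.7% of all probes passed the test in either direction. At 4 h 3 rose and 1 fell, and 40.6% of all probes passed. Relative to the median of all probes Mt2 stood 0.32 higher at 2 h and 0.51 higher at 4 h, and Mt1 probe 1 stood 0.18 and 0.44 higher. Mt1 probe 2 stood 0.31 lower at 2 h and 0.27 higher at 4 h. A scaling factor per array cannot alter this distance, so only quantile normalization and the normexp settings bear on it. Over these it was as low as 0.14 (Mt2) and 0.05 (Mt1 probe 1) at 2 h, and 0.22 (Mt2) and 0.16 (Mt1 probe 1) at 4 h. For Mt1 probe 2 it was -0.31 to -0.15 at 2 h and 0.14 to 0.35 at 4 h over all settings. Against Slc30a1 probe 1 on the same array the change of Mt2 was 0.35 and 0.49 larger at 2 h and 0.62 and 0.49 larger at 4 h (slides 1 and 2). For Mt1 probe 1 these differences were 0.15 and 0.41 at 2 h and 0.50 and 0.46 at 4 h. Such differences within an array, chosen after the values were seen, need no scaling and carry no test.

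**Figure D4:**
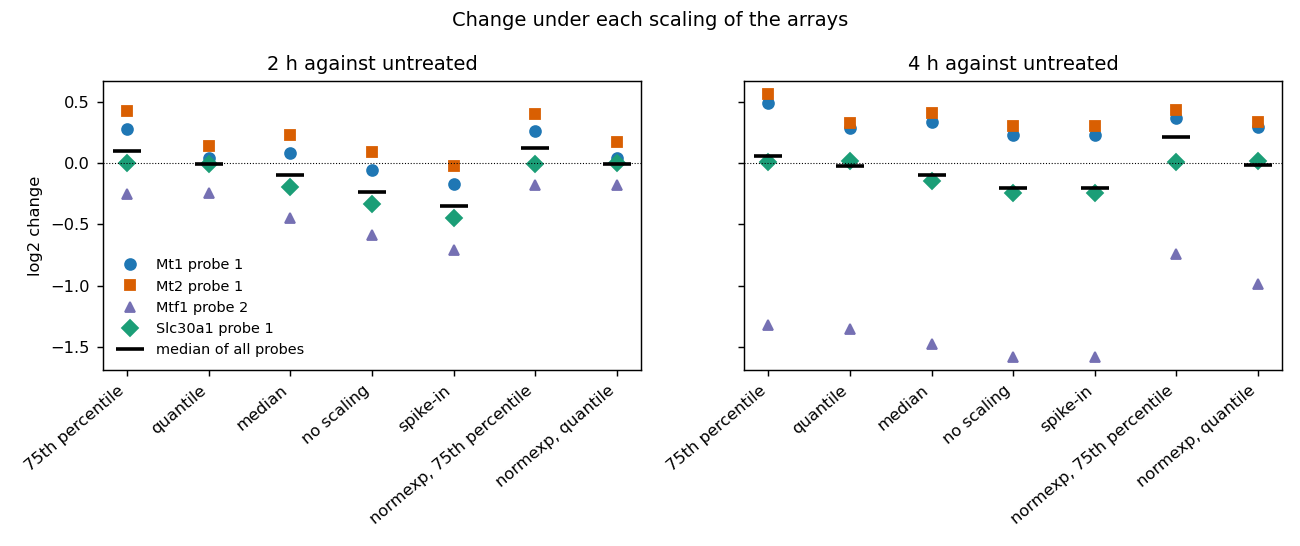
Log2 change at 2 h (left) and 4 h (right) of 4 probes under 7 ways of scaling and background correction, with the median of all probes as a black bar. Mt2 (squares) and Mt1 probe 1 (circles) stand above the bar in each column, and Mtf1 probe 2 (triangles) stands below it. Slc30a1 probe 1 (diamonds) lies near the bar or below it. Mt1 probe 2 is not drawn, and it stood below the median of all probes at 2 h.

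The direct comparison of 4 h with 2 h asked which changes went on between the times, and it uses the same treated arrays as the comparisons above. Mtf1 probe 2 was lower at 4 h than at 2 h (-1.07 ± 0.07, adjusted p = 0.00246), where 14.8% of all probes fell and 28.1% passed in either direction. Mt1 probe 2 was higher at 4 h (0.53 ± 0.07, adjusted p = 0.0103), where 13.3% rose, a call that did not hold without either 2 h array (0.52 and 0.54, adjusted p = 0.0596 and 0.0544). For Mt2 the change from 2 h to 4 h was 0.14 ± 0.09 and for Mt1 probe 1 it was 0.21 ± 0.14, and neither passed the test (adjusted p = 0.306 and 0.308). Mtf1 probe 1 (0.14 ± 0.07, adjusted p = 0.182) and Slc30a1 probes 1 and 2 (0.01 and -0.01, adjusted p = 0.933 and 0.955) did not pass either.

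The other metallothioneins lie in the same run of genes on chromosome 8, which RefSeq orders as Mt4, Mt3, Mt2 and Mt1 between Bbs2 and Nup93. Mt3, the metallothionein known from brain, had 0.549 and 0.547 in untreated cells, 0.645 and 0.662 at 2 h, and 0.579 and 0.637 at 4 h. Its change was 0.25 ± 0.07 at 2 h (adjusted p = 0.0504) and 0.15 at 4 h (adjusted p = 0.164). Without either 4 h array the 2 h change passed the test (adjusted p = 0.0492), and with spike-in scaling it was -0.20. Mt4, known from stratified epithelia, has 2 probes, and 1 of them did not pass the background filter and was not tested. The tested probe had 0.0852 and 0.153 in untreated cells, 0.289 and 0.226 at 2 h, and 0.123 and 0.170 at 4 h. Its 2 h arrays were the highest, and the change was 1.16 ± 0.34 (adjusted p = 0.0556, 1.76 and 0.56 on slides 1 and 2). Without untreated replicate 2 it was 1.58 and passed the test (adjusted p = 0.0319). At 4 h it was 0.34 (adjusted p = 0.466) and turned to -0.08 without untreated replicate 1. Of the 2 genes that flank the run, Bbs2, which encodes a subunit of the ciliary BBSome, was at -0.24 at 2 h (adjusted p = 0.0594) and fell by 0.52 ± 0.07 at 4 h (adjusted p = 0.00642). Nup93, a nucleoporin, did not pass the test at 2 h (0.17, adjusted p = 0.162) or 4 h (0.05, adjusted p = 0.627).

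Zinc importers of the ZIP family carried the largest change among the zinc genes. Slc39a4 (ZIP4), known for zinc uptake in the intestine, had a scaled signal of 0.0417 and 0.0438 in untreated cells, 0.451 and 0.604 at 2 h, and 0.259 and 0.258 at 4 h. It was low but above background in untreated cells (34.5 and 38.7 before scaling), highest at 2 h and in between at 4 h. It rose 12.2-fold at 2 h (3.61 ± 0.15, adjusted p = 0.000376) and 6.05-fold at 4 h (2.60 ± 0.15, adjusted p = 0.000827). By size of change it was number 293 of 25874 probes at 2 h and number 455 at 4 h. These folds rest on the dim untreated signal, and their values under the normexp settings are not given here. Slc39a6 (ZIP6) rose by 0.40 ± 0.06 at 2 h (adjusted p = 0.00840) and 0.54 ± 0.06 at 4 h (adjusted p = 0.00343). With spike-in scaling its 2 h value was -0.06, and without either untreated array or 2 h replicate 2 it did not pass at 2 h (0.37 to 0.40, adjusted p = 0.0528 to 0.0584). Slc39a10 (ZIP10), a gene that Mtf1 is known to repress, did not pass at 2 h and rose by 0.57 ± 0.09 at 4 h (adjusted p = 0.00964, 0.0532 without untreated replicate 1). Slc39a3 (ZIP3) had 1.21 and 1.11 in untreated cells, 1.05 and 0.917 at 2 h, and 0.719 and 0.649 at 4 h. It fell by 0.76 ± 0.10 on the log2 scale at 4 h (adjusted p = 0.00665). Of the 12 tested importers 3 rose, 0 fell and 9 did not pass at 2 h, and at 4 h 3 rose, 1 fell and 8 did not pass. With 1 probe per gene, 22.7% of all genes rose and 14.9% fell at 2 h (37.5% in all), and 23.9% rose and 18.0% fell at 4 h (41.9% in all). The median change of the importers was 0.29 at 2 h and 0.16 at 4 h, against 0.12 and 0.07 for all genes. The count takes the brightest probe of a gene. Another probe of Slc39a14 (ZIP14) rose at 2 h (0.69, adjusted p = 0.00529) and 4 h (0.80, adjusted p = 0.00349), while its brightest gave 0.30 and 0.55 and did not pass. Another probe of Slc39a8 (ZIP8) fell at 4 h (-0.54, adjusted p = 0.0190). Slc30a7, Slc39a14 and Slc39a8 were named after their values were seen. Slc39a5 and Slc39a12 were at background on all arrays.

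Of 6 tested zinc exporters of the ZnT family other than Slc30a1, 2 rose, 0 fell and 4 did not pass at 2 h, where 22.7% of all genes rose. At 4 h 1 rose, 0 fell and 5 did not pass, where 23.9% of all genes rose. Another probe of Slc30a7, which does not stand for the gene in the count, fell at 4 h (-0.55, adjusted p = 0.0257). Slc30a4 (ZnT4), an exporter of endosomal and secretory vesicles, rose by 0.44 ± 0.08 at 2 h (adjusted p = 0.0162) and by 0.44 ± 0.08 at 4 h (adjusted p = 0.0141). Slc30a6 (ZnT6), which carries zinc into the Golgi as part of a heteromer, rose by 0.25 ± 0.06 at 2 h (adjusted p = 0.0312). With spike-in scaling the 2 h values were -0.01 for Slc30a4 and -0.20 for Slc30a6. Leaving out any 1 array ended the call of Slc30a6 (0.22 to 0.28, adjusted p = 0.0566 to 0.140), and leaving out either untreated or either 2 h array ended that of Slc30a4 at 2 h (0.43 to 0.45, adjusted p = 0.0756 to 0.0790). At 4 h Slc30a4 did not pass without either untreated array (0.44 and 0.45, adjusted p = 0.0704 and 0.0665). The median change of the exporters was 0.18 at 2 h and 0.11 at 4 h, against 0.12 and 0.07 for all genes. Slc30a2, Slc30a3 and Slc30a10 were at background on all arrays.

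**Figure D5:**
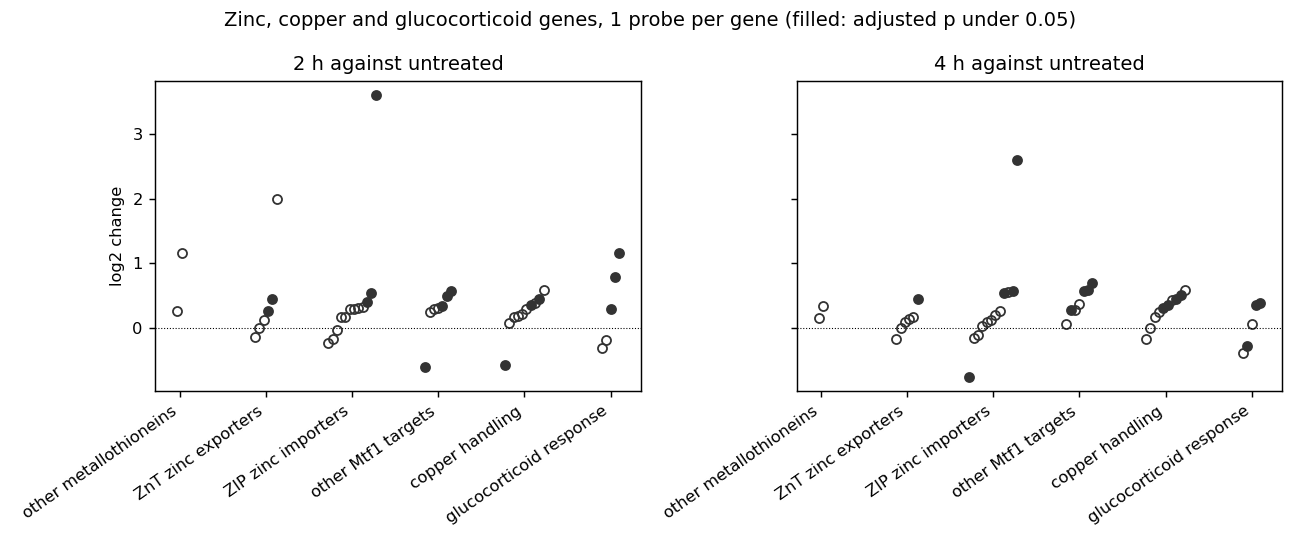
Log2 change at 2 h (left) and 4 h (right) of the tested genes of 6 lists, 1 probe per gene, as one circle per gene sorted within its list. Filled circles passed the limma test. Slc39a4 stands highest at 3.61 and 2.60, and the open circle at 2.00 among the exporters at 2 h is Slc30a8 (adjusted p = 0.0525), named after its value was seen and well above background on 2 of 6 arrays.

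Of 7 other genes known as targets of the Mtf1 factor, 3 rose, 1 fell and 3 did not pass at 2 h, and 4 rose, 0 fell and 3 did not pass at 4 h. Of all genes 22.7% rose and 14.9% fell at 2 h, and 23.9% rose and 18.0% fell at 4 h. The median change of these targets was 0.30 at 2 h and 0.37 at 4 h, against 0.12 and 0.07 for all genes. One of the rises at 4 h is that of Slc39a10, counted among the importers too, which Mtf1 is known to repress and not to induce. Gclc, the catalytic subunit of the enzyme that limits glutathione synthesis, had 2.10 and 2.08 in untreated cells, 3.0 and 2.88 at 2 h, and 3.40 and 3.36 at 4 h. It rose by 0.49 ± 0.06 at 2 h (adjusted p = 0.00449) and 0.70 ± 0.06 at 4 h (adjusted p = 0.00186). With spike-in scaling its 2 h value was 0.042 (adjusted p = 0.576). Ndrg1, a stress-induced gene, rose by 0.57 ± 0.06 and 0.58 ± 0.06 at 2 h and 4 h (adjusted p = 0.00328 and 0.00308). With spike-in scaling its 2 h value was 0.12 (adjusted p = 0.149). Slc40a1, the iron exporter ferroportin, had 1.49 and 1.41 in untreated cells, 0.942 and 0.954 at 2 h, and 1.54 and 1.47 at 4 h. It fell by 0.61 ± 0.06 at 2 h (adjusted p = 0.00326) and its 4 h arrays overlapped the untreated ones. Gclc is also a known target of the oxidant-responsive factor Nrf2.

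Copper genes were listed since metallothioneins also bind copper. Of 10 tested genes 2 rose, 1 fell and 7 did not pass at 2 h, and 4 rose, 0 fell and 6 did not pass at 4 h, with medians of 0.26 and 0.33 against 0.12 and 0.07 for all genes. Of all genes 22.7% rose and 14.9% fell at 2 h, and 23.9% rose and 18.0% fell at 4 h. Slc31a2, a copper transporter of internal membranes, rose by 0.51 ± 0.06 at 4 h (adjusted p = 0.00410). Ccs, the copper chaperone of superoxide dismutase, rose by 0.44 ± 0.10 at 4 h (adjusted p = 0.0231, 0.0519 to 0.102 without either untreated array or 4 h replicate 1). Cox17 brings copper to cytochrome c oxidase, and a dimmer probe of it did not pass at 2 h (0.33, adjusted p = 0.0530) or 4 h (0.26, adjusted p = 0.0863). Its brightest probe rose by 0.45 ± 0.09 at 2 h (adjusted p = 0.0186) and 0.31 ± 0.09 at 4 h (adjusted p = 0.0464). At 4 h it was -0.04 after quantile normalization and did not pass without either untreated or either 4 h array (0.26 to 0.36, adjusted p = 0.103 to 0.187). At 2 h it did not pass without either untreated array or 2 h replicate 2 (0.36 to 0.50, adjusted p = 0.0623 to 0.0912). Cox11, another assembly factor of that oxidase, had 4.37 and 4.33 in untreated cells, 2.91 and 2.87 at 2 h, and 4.55 and 4.15 at 4 h. It fell by 0.59 ± 0.07 at 2 h (adjusted p = 0.00468).

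Genes that respond to glucocorticoids were listed because these hormones also induce Mt1 and Mt2. Of 5 tested genes 3 rose and 2 did not pass at 2 h, and at 4 h 2 rose, 1 fell and 2 did not pass, with medians of 0.29 and 0.05 against 0.12 and 0.07 for all genes. Of all genes 22.7% rose and 14.9% fell at 2 h, and 23.9% rose and 18.0% fell at 4 h. Fkbp5, a chaperone of steroid receptors and a known glucocorticoid target, is counted as not past on its brightest probe (-0.31 at 2 h and -0.40 at 4 h), but 1 of its 3 probes fell at 2 h (-0.65, adjusted p = 0.00444) and 2 at 4 h (-0.73 and -0.47, adjusted p = 0.00791 and 0.00993). It was named after its values were seen. Klf9, a zinc finger repressor, had 2.55 and 2.37 in untreated cells, 5.66 and 5.33 at 2 h, and 3.20 and 3.05 at 4 h. It rose 2.24-fold at 2 h (1.16 ± 0.07, adjusted p = 0.000933) and by 0.35 ± 0.07 at 4 h (adjusted p = 0.0214, 0.0580 to 0.105 without either untreated or either 4 h array). Sgk1, a serum- and glucocorticoid-induced kinase, had 10.3 and 10.4 in untreated cells, 17.8 and 18.0 at 2 h, and 13.6 and 13.5 at 4 h. Its rise was 0.79 ± 0.05 at 2 h (adjusted p = 0.00109) and 0.39 ± 0.05 at 4 h (adjusted p = 0.00703). Tsc22d3 (GILZ) rose by 0.29 ± 0.08 at 2 h (adjusted p = 0.0457) and the clock gene Per1 fell by 0.29 ± 0.08 at 4 h (adjusted p = 0.0386). The Tsc22d3 value was -0.16 with spike-in scaling. Its call ended without any 1 array (0.21 to 0.37, adjusted p = 0.0574 to 0.176), and that of Per1 ended without any array but 4 h replicate 1 (-0.31 to -0.22, adjusted p = 0.0701 to 0.155).

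Genes with the pattern most like that of each zinc gene were sought among 13567 tested genes with an official symbol, by the root mean square difference of log2 values over the 6 arrays after centring each brightest probe on its own mean. Nearest to Mt2 were Hsbp1 (0.0162), Cstb (0.0209) and Rnf11 (0.0255), and 529 genes lay within 0.1 of it. Hsbp1 encodes a binding partner of heat shock factor, and Cstb an inhibitor of cysteine cathepsins. Nearest to Mt1 probe 1 were Map1lc3b (0.0348), an autophagosome protein, Ube2o (0.0469) and the ribosomal protein gene Rpl29 (0.0469), with 251 genes within 0.1. For Mtf1 probe 1 the nearest were Mir100hg, Catsper2 and Utp3 (0.0261 to 0.0303), with 1169 genes within 0.1. For Slc30a1 probe 1 they were Slc35e2, Gtf2e1 and Ppat (0.0205 to 0.0218), with 1518 genes within 0.1. Mt2 and Mt1 probe 1 varied by 0.250 and 0.232 around their own means, so the genes within 0.1 of them shared a pattern. These patterns were therefore not particular to Mt2 or Mt1 on these arrays. Mtf1 probe 1 and Slc30a1 probe 1 varied by only 0.0898 and 0.0389. A gene that did not vary at all would lie within 0.1 of either, so their counts do not show a shared pattern. The pattern of Mtf1 probe 2 was not compared.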

How the data were processed

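The deposited scanner files hold spot intensity, which the authors extracted with Feature Extraction 9.5.3.1, per the file headers. The deposited value table holds the same processed intensity within 0.0005. Each array's 75th percentile of log2 processed signal over 43379 non-control spots (of 45018) was subtracted. Outlier spots (99 to 149 per array) were left out and spots of a probe averaged. Probes were named through RefSeq by accession (22951), symbol (6659) or older symbol (3109), and 8455 kept the file's name. limma 3.58.1 in R 4.3.3 (with the data.table package, 1.17.8) fitted all 6 arrays with 1 mean per group (3 residual and 1.69 prior degrees of freedom) over probes well above background in every replicate of some group, with Benjamini-Hochberg adjustment over all of them. The fit was tested on simulated data.

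Replicate numbers in the labels are slides 1 and 2 in the headers, and arrays of 1 slide deviated together (r = 0.215, 0.190 and 0.210 for the pairs of groups), so the numbers pair the arrays. The reported fit has no block, and the fit with it was run as an alternative. Scaling, background correction, filter, probe choice, block and left-out arrays were varied. The 4 genes and all lists were chosen with earlier results of these data known. Of each list the text names up to 4 genes past the test with the largest change, or 2 where none passed, with the genes that flank the Mt run and the 3 genes nearest in pattern to each zinc gene. Sco2 and Zbtb16 were listed but had no probe of that name. Motifs were searched in RefSeq promoter windows of GRCm38.p6. No source used here names a genome build for the probes, so their coordinates are not printed. The values of 1 list of cell type markers are not reported here.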

Additional observations from a re-analysis of the deposited data

Results flagged for a closer look

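For 2 of the 7 tested probes the change in H2O2 differed between the 2 times by a test of the difference itself, the limma comparison of 4 h with 2 h. Of all tested probes 28.1% passed in that comparison, so such a difference was common on these arrays. Mtf1 probe 2 was lower at 4 h than at 2 h by a log2 difference of -1.07 (adjusted p = 0.00246, -0.99 and -1.16 on slides 1 and 2). With normexp and the 75th percentile it was -0.57 and did not pass (adjusted p = 0.131). Mt1 probe 2 was higher at 4 h than at 2 h by 0.53 (adjusted p = 0.0103, 0.61 and 0.44 on slides 1 and 2). That call was lost with normexp and the 75th percentile (0.51, adjusted p = 0.0563) and without either 2 h array (0.52 and 0.54, adjusted p = 0.0596 and 0.0544). Both rest on 1 probe of a gene whose other tested probe did not pass in that comparison: the change was 0.14 for Mtf1 probe 1 and 0.21 for Mt1 probe 1.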

How the results depend on the processing

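With 2 arrays per group most calls on the zinc genes lie close to the threshold, and the direction of Mt2 and of Mt1 probe 1 at 2 h depends on the scaling. With the 75th percentile there were 5481 rises and 3753 falls at 2 h, 5958 and 4551 at 4 h, and 3438 and 3839 between 4 h and 2 h. Under every setting that measured them Mt2 and both Mt1 probes were positive at 4 h, Mtf1 probe 2 was negative in all 3 comparisons, and Mt1 probe 2 was negative at 2 h. The values below are log2 changes, and the cause of their shifts was not tested.

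After quantile normalization 3592 probes rose at 2 h, Mt2 was 0.14 and Mtf1 probe 2 -0.25 (both no longer past the test) and Slc30a1 probe 1 was -0.00093. At 4 h Mt1 probe 1 was 0.29, no longer past it, and Cox17 was -0.036.

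With median centring 2498 probes rose and 5730 fell at 2 h, 3310 rose at 4 h, and 2507 fell between 2 h and 4 h. At 2 h Mt2 was 0.23 and did not pass, Mt1 probe 2 fell by 0.40, Mtf1 probe 1 was -0.15 and Slc30a1 probe 1 -0.19. At 4 h Mt1 probe 1 (0.34), Mt1 probe 2 (0.17) and Mt2 (0.41) did not pass, Slc30a1 probe 1 was -0.14 and Mt3 -0.0085. Between 2 h and 4 h Slc30a1 probe 2 was 0.033.

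With no scaling 1963 probes rose and 7948 fell at 2 h, 2387 rose and 7616 fell at 4 h, and 1900 fell between 2 h and 4 h. At 2 h Mt2 was 0.091, Mt1 probe 1 -0.053, Mtf1 probe 1 -0.29 and Slc30a1 probe 1 -0.33, while Mt1 probe 2 fell by 0.54. Tsc22d3 was then -0.045, Slc30a6 -0.087 and Mt3 -0.083. At 4 h Mt1 probes 1 and 2 (0.24 and 0.067) did not pass, Mtf1 probe 1 was -0.065, Slc30a1 probe 1 -0.25 and Mt3 -0.11. Between 2 h and 4 h Slc30a1 probe 2 was 0.068.

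With spike-in scaling 1902 probes rose and 13519 fell at 2 h, 2744 rose and 8894 fell at 4 h, and 5509 rose and 1646 fell between 2 h and 4 h. At 2 h Mt1 probe 1 was -0.17, Mt2 -0.024, Slc30a4 -0.013, Tsc22d3 -0.16, Slc39a6 -0.057, Cox17 -0.0042 and Mt3 -0.20. Mt1 probe 2 (-0.66), Mtf1 probe 1 (-0.40), Slc30a1 probes 1 and 2 (-0.45 and -0.49) and Slc30a6 (-0.20) fell. At 4 h Mt1 probes 1 and 2 (0.24 and 0.066) did not pass, Mtf1 probe 1 was -0.065, Slc30a1 probe 1 -0.25 and Mt3 -0.11. Between 2 h and 4 h Mt2 (0.33) and Mtf1 probe 1 (0.34) rose and Slc30a1 probe 2 was 0.18.

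With normexp and the 75th percentile 933 probes rose and 762 fell at 2 h, 1904 rose and 860 fell at 4 h, and 852 rose and 177 fell between 2 h and 4 h. None of the calls on the 7 probes held: at 2 h Mt2 was 0.41 and Mtf1 probe 2 -0.17, and at 4 h Mt1 probes 1 and 2 were 0.37 and 0.36, Mt2 0.44 and Mtf1 probe 2 -0.75 (adjusted p = 0.0501). Between 2 h and 4 h Mt1 probe 2 was 0.51 and Mtf1 probe 2 -0.57. Slc30a1 probe 1 was -0.0021 at 2 h, and Slc30a1 probe 2 was 0.041 at 4 h and 0.043 between 2 h and 4 h. With normexp and quantile normalization Mt2 (0.17) and Mtf1 probe 2 (-0.17) at 2 h and Mt1 probe 1 (0.30) at 4 h did not pass, Slc30a1 probe 2 was 0.012 at 2 h and Cox17 -0.014 at 4 h.

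With no filter on dim probes 2985 rose and 2318 fell at 2 h, 3627 rose and 2637 fell at 4 h, and 2004 rose and 1377 fell between 2 h and 4 h. Mt2 (0.43) and Mtf1 probe 2 (-0.25) at 2 h and Mt1 probes 1 and 2 (0.50 and 0.33) at 4 h kept their size, by construction, and did not pass. With only the arrays of the groups compared, Mtf1 probe 2 at 2 h (-0.25) and Mt1 probes 1 and 2 at 4 h (0.50 and 0.33) did not pass. With the probes of a gene averaged 2939 genes fell at 4 h and 2272 rose between 2 h and 4 h, which are counts of genes and not of probes. Mtf1 was then -0.10, -0.57 and -0.46 at 2 h, 4 h and between them, against the positive values of its probe 1, and Slc30a1 was -0.016 at 2 h and -0.016 at 4 h.

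With the replicate number as a block, which is also the slide, Mt1 probe 1 at 2 h was 0.28 and passed the test (adjusted p = 0.0422), and no other call on the 7 probes changed. There were then 7650 rises and 4651 falls at 2 h, 7447 and 5562 at 4 h, and 4204 and 5373 between 2 h and 4 h.

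When each of the 6 arrays was left out in turn, the lone array of a group was assumed to vary like the others. At 2 h 2622 to 4779 probes rose and 2141 to 3520 fell. The changes were Mt1 probe 1 0.14 to 0.42, Mt1 probe 2 -0.22 to -0.18, Mt2 0.37 to 0.49 and Mtf1 probe 1 -0.0019 to 0.10, and Mtf1 probe 2 -0.31 to -0.19, Slc30a1 probe 1 -0.021 to 0.032 and Slc30a1 probe 2 -0.16 to 0.090. At 4 h 3248 to 4842 probes rose and 2451 to 3818 fell. The changes were Mt1 probe 1 0.36 to 0.64, Mt1 probe 2 0.25 to 0.40, Mt2 0.48 to 0.66 and Mtf1 probe 1 0.14 to 0.25, and Mtf1 probe 2 -1.35 to -1.30, Slc30a1 probe 1 -0.046 to 0.076 and Slc30a1 probe 2 -0.061 to -0.030. Between 2 h and 4 h 1870 to 2863 probes rose and 1302 to 2770 fell. The changes were Mt1 probe 1 0.089 to 0.34, Mt1 probe 2 0.45 to 0.60, Mt2 0.051 to 0.23 and Mtf1 probe 1 0.12 to 0.17, and Mtf1 probe 2 -1.13 to -1.01, Slc30a1 probe 1 -0.051 to 0.070 and Slc30a1 probe 2 -0.14 to 0.12. Mt4 at 4 h was -0.082 to 0.76.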
